A study of Mus musculus with 18 samples.

Results

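Of 9 genes of iron homeostasis followed here in mouse liver, 8 were measured, and none passed the test for a difference by caloric restriction or SIRT1 genotype. The 9 genes were the hepcidin genes Hamp and Hamp2, the transferrin receptors Tfrc and Tfr2, their partner Hfe, the ligand Bmp6, the iron exporter Slc40a1, the iron carrier Trf and the ferritin heavy chain Fth1. They were read by symbol from the 13 probes that carried those symbols among 25697 probes on an Illumina MouseRef-8 v2 beadchip. The 9 genes were listed with earlier results of these data known. A probe was kept when its detection p-value, the share of the array's negative control beads at or above its signal, was under 0.05 in at least 2 of 18 libraries, and the brightest kept probe stood for the gene. By that rule 8 of the 9 genes passed, among 8950 genes of the whole array. The 1 probe of Bmp6 was detected in 0 of 18 libraries, with signals of 41.6 to 55.7, and Bmp6 entered no test.

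The study asked how SIRT1 gene dose altered the liver's response to a long-term diet. Mice labelled as male C57BL/6J of 3 genotypes, SIRT1+/+ with normal SIRT1, SIRT1+/- with reduced SIRT1 and SIRT1-/- with none, were kept ad libitum (AL) or on 40% caloric restriction (CR) from an age of 2 to 5 months and sampled at 13 to 16 months. The liver RNA of 1 mouse was hybridized to 1 array. The groups were AL SIRT1+/+ (n = 3), AL SIRT1+/- (n = 2), AL SIRT1-/- (n = 4), CR SIRT1+/+ (n = 3), CR SIRT1+/- (n = 3) and CR SIRT1-/- (n = 3). The mice were single-caged, and the AL and CR groups were given different chows, so food composition and food amount cannot be told apart. The SIRT1-/- mice lacked SIRT1 in the whole body and not in the liver alone. Nothing in the labels beyond 1 liver per array says how litters were spread over the groups, so p-values measure the spread between these mice. The deposited headers number all CR livers before all AL livers, and what the numbers stand for is not given. Diet and any effect of that order cannot be told apart. In whole liver, fewer cells of a type and less RNA per cell cannot be told apart.

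Hepcidin, the peptide made from Hamp, is the hormone by which the liver sets body iron: it binds the exporter ferroportin, made from Slc40a1, and has it degraded, so iron stays inside gut cells and macrophages. Hepatocytes read iron through transferrin receptors, HFE and bone morphogenetic proteins such as BMP6, which act through SMAD proteins, while interleukin 6 acts on the same gene through STAT3. Mice carry a neighbouring copy, Hamp2, whose peptide is not known to act on iron as hepcidin does.

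The hepcidin promoters are shown because the mouse has Hamp and Hamp2 side by side and their levels went apart in single livers. Both windows run from 250 bases before to 50 bases after the gene's start, 300 bases in all, on the minus strand of GRCm38.p6 as RefSeq gives them, at chr7:30943980-30944279 for Hamp and chr7:30924132-30924431 for Hamp2. Capitals mark matches to GGCGCC, the core of the BMP-responsive element, and to TTCNNNGAA, a STAT motif. Both letter patterns were searched on both strands, and they do not overlap each other.
Hamp: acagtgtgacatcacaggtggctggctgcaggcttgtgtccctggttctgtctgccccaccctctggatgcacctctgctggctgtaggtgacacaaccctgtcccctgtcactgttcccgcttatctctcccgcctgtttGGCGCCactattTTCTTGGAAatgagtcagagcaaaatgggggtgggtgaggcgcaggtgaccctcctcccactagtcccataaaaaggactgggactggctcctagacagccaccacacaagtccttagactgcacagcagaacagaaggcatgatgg
Hamp2: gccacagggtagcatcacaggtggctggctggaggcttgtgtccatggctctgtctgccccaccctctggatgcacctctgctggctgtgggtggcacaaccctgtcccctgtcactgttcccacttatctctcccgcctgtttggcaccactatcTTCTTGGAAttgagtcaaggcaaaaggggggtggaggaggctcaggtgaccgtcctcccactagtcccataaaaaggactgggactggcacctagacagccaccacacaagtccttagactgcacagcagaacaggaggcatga
The pair aligned over 303 columns with 276 identical bases, 21 mismatches and 6 gaps, an identity of 91.1%. Hamp held GGCGCC from 109 to 104 bases before its start and TTCTTGGAA from 97 to 89 bases before it. Hamp2 held the same TTCTTGGAA from 94 to 86 bases before its start but had no GGCGCC in the window, and the aligned bases differed from Hamp by G4A, counted from 1 at the 5′ end of the element with the base of Hamp first. Of 27025 promoters of this length, 12.0% held GGCGCC and 8.47% held TTCNNNGAA on either strand, so both patterns are common, and a match is a description of letters, not of binding. Of the 9 genes, 7 had a promoter entry. The Tfrc window also held 1 GGCGCC but no TTCNNNGAA, and those of Tfr2, Fth1, Bmp6 and Hfe held neither. Trf and Slc40a1 had none.

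Levels are given as the deposited signal, in arbitrary units without background subtraction, and as the scaled log2 signal, which is the log2 signal less its array mean, divided by its array SD and multiplied by the mean SD of 1.84. The arrays detected 10726 to 11386 probes each, and their median signals were 59.3 to 78.8 on AL and 57.4 to 86.6 on CR. The liver marker list gave hepatocyte RNA in all libraries: Ttr, the thyroxine carrier, lay between 6.68 and 8.49 and Apoa1, the main protein of high-density lipoprotein, between 6.74 and 8.43, although the Alb probe was dim, at -0.76 to 0.07. The Sirt1 signal was 217 to 309 in AL SIRT1+/+, 188 to 194 in AL SIRT1+/- and 184 to 343 in AL SIRT1-/-, and 242 to 610, 219 to 343 and 217 to 547 in the same genotypes on CR. Its log2 difference between SIRT1-/- and SIRT1+/+ was -0.09 on AL (95% interval -0.50 to 0.32) and -0.16 on CR (-0.60 to 0.28), and the place of this probe relative to the deleted part is not given in the sources used here, so the signal does not check the genotypes. Xist, the transcript of the silenced X chromosome, was detected in 7 libraries, 2 on AL and 5 on CR, and Y-linked transcripts in the other 11, 7 on AL and 4 on CR, whereas the labels call all mice male and the study's methods list both sexes. Libraries of AL SIRT1-/- replicate 4 and CR SIRT1+/+ replicate 1 stood apart: 51 and 13 genes lay more than 1 scaled log2 unit above all other libraries and 50 and 15 below them, against at most 8 and 4 for any other library.

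Hamp, the hepcidin gene, gave strong signals in 17 of 18 livers and a weak one in CR SIRT1+/+ replicate 1. On AL, the Hamp signals were 11661, 11526 and 16683 for SIRT1+/+, 8177 and 10569 for SIRT1+/- and 14930, 10835, 8524 and 8347 for SIRT1-/-. On CR, they were 377, 17870 and 20498 for SIRT1+/+, 17094, 19251 and 10205 for SIRT1+/- and 16680, 20349 and 17363 for SIRT1-/-. The lowest signal was 21.7-fold below the next lowest, and the other 17 lay within 8177 to 20498. It was still detected, in that liver as in the other 17.

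On the scaled log2 scale, the mean Hamp level was 7.02 ± 0.273 (SD, n = 3) in AL SIRT1+/+ and 4.91 ± 2.82 (SD, n = 3) in CR SIRT1+/+, where the libraries stood at 1.66, 6.48 and 6.59. The order of the group means was AL SIRT1+/+, AL SIRT1+/- at 6.87, CR SIRT1+/- at 6.85, CR SIRT1-/- at 6.80, AL SIRT1-/- at 6.60 and CR SIRT1+/+ last, and every group overlapped its neighbour in that order. Within SIRT1+/+, CR minus AL was -2.11 (SE 0.885, 95% interval -3.99 to -0.22), with an adjusted p of 0.286 from limma. Without CR SIRT1+/+ replicate 1 it was -0.48, with a limma adjusted p of 0.612, so 1 liver set most of the difference. All 3 CR SIRT1+/+ livers lay below all 3 AL SIRT1+/+ livers on this scale, whose lowest was 6.75, and Hamp was the only 1 of the 8 genes to do so in that genotype, beside 20.4% of all genes tested whose diets did not overlap there. After quantile normalization the separation was gone: the CR SIRT1+/+ livers stood at 8.63, 13.69 and 13.93 and the AL SIRT1+/+ livers at 13.79 to 13.90. None of the 8 genes separated the diets in SIRT1+/-, where 30.5% of all genes did, or in SIRT1-/-, where 12.8% did.

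In the other genotypes the scaled Hamp difference by diet was close to 0 with a wide interval. CR minus AL was -0.02 (95% interval -2.13 to 2.08) in SIRT1+/- and 0.19 (-1.57 to 1.95) in SIRT1-/-. The averaged CR effect, the mean of the 3 genotypes with equal weight, was -0.65 (SE 0.522, 95% interval -1.75 to 0.46), with a limma adjusted p of 0.443, and it was -0.10 without CR SIRT1+/+ replicate 1. The CR effect in SIRT1-/- exceeded that in SIRT1+/+ by 2.30 (95% interval -0.28 to 4.88), with a limma adjusted p of 0.951, and by 0.67 without CR SIRT1+/+ replicate 1. On CR, the Hamp level of SIRT1+/- less that of SIRT1+/+ was 1.94 (95% interval 0.05 to 3.82), with a limma adjusted p of 0.914, and was 0.31 without that liver. Without AL SIRT1-/- replicate 4 the SIRT1-/- diet difference turned to -0.12. After quantile normalization, the SIRT1+/- livers stood at 13.30 and 13.80 on AL and 13.94, 13.86 and 13.59 on CR. The SIRT1-/- livers stood at 13.97, 13.60, 13.48 and 12.80 on AL and 14.03, 13.86 and 13.77 on CR. The averaged CR effect was then -0.36, with an exact permutation p of 0.942. Over all livers the median deposited Hamp signal was 10835 on AL and 17363 on CR.

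The liver with little Hamp carried a set of other genes far from the rest. Apoh, a plasma glycoprotein of hepatocytes, stood at -0.97 there and at 3.54 or above in the other 17 libraries, and Ugt3a1, a glycosyltransferase, at 0.97 against 3.17 or above. Ffar4, a fatty acid receptor, stood at 3.88 against at most -0.28 elsewhere, and Slc4a1, the anion exchanger of red cells, at 3.28 against at most 0.51. Hbb-b2, a beta globin, was also highest there, at 3.08 against at most 1.37. Of the other 4 erythroid markers tested, the globin genes Hbb-bt and Hba-a1 were at 0.29 and 8.19 in this liver, places 3 and 5 from the highest of 18, Alas2 was at 3.90, place 6, and the receptor gene Epor was the lowest of the 18, at -0.77. The summed signal of the 6 was 36182, the highest of the 18, and 88.8% of it came from Hba-a1. The part of red cell RNA in the low Hamp level was not tested.

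Hamp2, the neighbouring hepcidin copy, had signals from 53.6, where it was not detected, to 29625. On AL, its signals were 2054, 7050 and 13902 for SIRT1+/+, 7102 and 2154 for SIRT1+/- and 6782, 25037, 20935 and 4187 for SIRT1-/-. On CR, they were 906, 29084 and 87.8 for SIRT1+/+, 17461, 27965 and 58.9 for SIRT1+/- and 53.6, 29625 and 28966 for SIRT1-/-. Hamp2 was thus bright in all 9 AL livers, and each CR group held 1 liver in which it was not detected. The detection p-values of those 3 livers were 0.107 in SIRT1+/+ replicate 3, 0.114 in SIRT1+/- replicate 3 and 0.392 in SIRT1-/- replicate 1. Their Hamp signals were 20498, 10205 and 16680, so the Hamp2 probe gave no detected signal where Hamp was bright, although the promoters printed above are close copies. The remaining 6 CR livers lay between 906 and 29625.

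On the scaled log2 scale, the mean Hamp2 level was 5.80 ± 1.02 (SD, n = 3) in AL SIRT1+/+, 5.54 ± 1.13 (SD, n = 2) in AL SIRT1+/- and 6.73 ± 1.69 (SD, n = 4) in AL SIRT1-/-. It was 3.11 ± 3.95, 4.44 ± 4.53 and 4.38 ± 4.78 (SD, n = 3 each) in the same genotypes on CR. The 3 CR groups had the lowest means and the widest spread, and each group overlapped its neighbours. Each CR mean included 1 liver without detected Hamp2. The median over the livers of a diet went the other way, at 6.95 on CR and 6.28 on AL. In deposited signal it was 17461 on CR and 7050 on AL. The averaged CR effect was -2.04 (SE 1.40, 95% interval -5.02 to 0.93), with a limma adjusted p of 0.361 and an exact permutation p of 0.201. It was closer to 0 when 1 of the 3 CR livers without detected Hamp2 was left out: -1.40 without SIRT1+/+ replicate 3, -1.17 without SIRT1+/- replicate 3 and -1.12 without SIRT1-/- replicate 1. The exact test moved the diet label among the mice of each genotype in all 7000 arrangements, was two-sided and could not go below 0.000143. Within a genotype, the Hamp2 difference ran from -2.68 in SIRT1+/+ through -1.10 in SIRT1+/- to -2.35 in SIRT1-/-, and the 95% interval of each covered 0.

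On AL, Hamp2 also moved with the sex-linked transcripts. Among AL livers, the 2 with Xist stood at 7.97 and 8.26 and the 7 with Y-linked transcripts between 4.62 and 6.49. Among CR livers, the 5 with Xist ran from -0.76 to 7.31 and the 4 with Y-linked transcripts from -1.13 to 7.14. The AL classes did not overlap and the CR classes did, and both AL livers with Xist were SIRT1-/-. The part of sex in the Hamp2 levels was not tested.

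**Figure D1:**
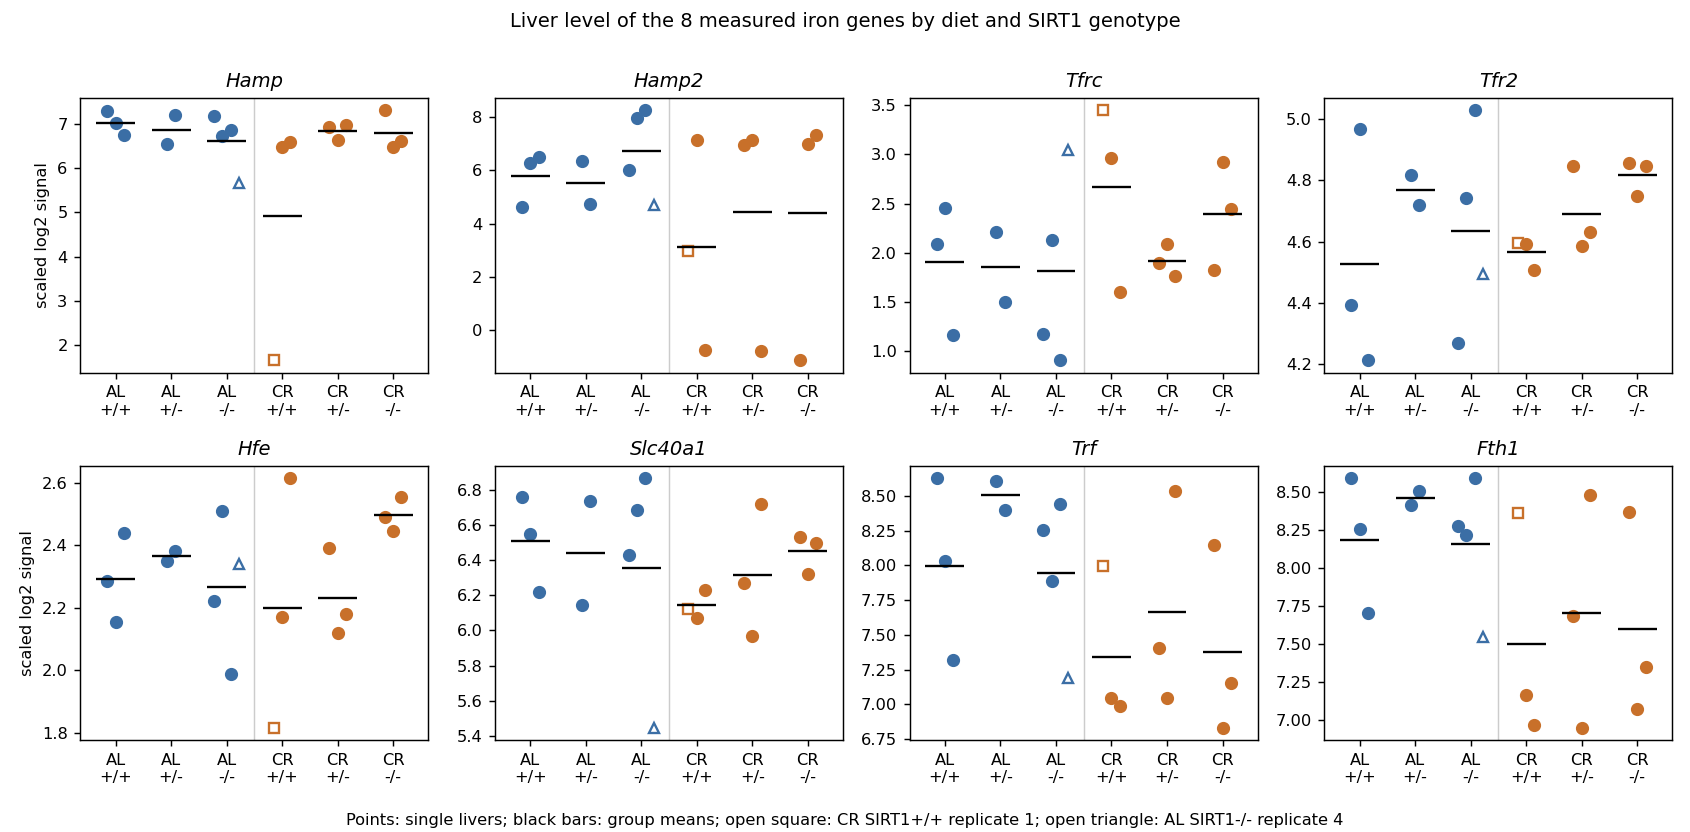
Scaled log2 signal (y axis, log2 units, a separate range in each panel) of the 8 measured iron genes in 18 livers by diet and SIRT1 genotype (x axis), with 1 point per liver and black bars for group means. Hamp is at 1.66 in CR SIRT1+/+ replicate 1 (open square) and at 5.66 or above elsewhere, and Hamp2 is below 0 in 1 liver of each CR group.

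Transferrin receptor 1, made from Tfrc, brings iron-loaded transferrin into cells, and its mRNA is held stable when cell iron is low. On AL, the Tfrc signals were 395, 558 and 308 for SIRT1+/+, 470 and 266 for SIRT1+/- and 262, 478, 186 and 1270 for SIRT1-/-. On CR, they were 1269, 1319 and 504 for SIRT1+/+, 500, 673 and 323 for SIRT1+/- and 401, 1391 and 842 for SIRT1-/-. Of the 4 highest signals, 1269 to 1391, 3 were on CR and the fourth belonged to AL SIRT1-/- replicate 4, and the diets overlapped in every genotype.

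The mean scaled level of Tfrc was 2.67 ± 0.958 (SD, n = 3) in CR SIRT1+/+, 2.40 ± 0.547 (SD, n = 3) in CR SIRT1-/- and 1.92 ± 0.160 (SD, n = 3) in CR SIRT1+/-. The AL means were 1.90 in SIRT1+/+, 1.85 in SIRT1+/- and 1.82 in SIRT1-/-, and each group overlapped its neighbours. The averaged CR effect was 0.47 (SE 0.315, 95% interval -0.20 to 1.14), with a limma adjusted p of 0.349 and an exact permutation p of 0.149. Within genotypes it was 0.77 (95% interval -0.37 to 1.90) for SIRT1+/+, 0.06 (-1.21 to 1.33) for SIRT1+/- and 0.58 (-0.48 to 1.64) for SIRT1-/-. The averaged value was 0.41 after quantile normalization and 0.45 after neqc, a background correction and quantile normalization that uses the detection p-values. The second Tfrc probe followed the first over the 18 libraries, with a Pearson r of 0.977, and the mean of both gave 0.56 with an exact permutation p of 0.0909. Without CR SIRT1+/+ replicate 1 the averaged effect of the first probe was 0.34, and without AL SIRT1-/- replicate 4 it was 0.61. Without the same livers the SIRT1+/+ difference was 0.38 and the SIRT1-/- difference 0.99, in that order.

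On the scaled log2 scale, the Hamp and Tfrc levels ran in opposite directions over the 18 livers, with a Pearson r of -0.62. It was -0.59 without CR SIRT1+/+ replicate 1, -0.61 without AL SIRT1-/- replicate 4 and -0.46 without both. Both livers that stood apart lay at this end: CR SIRT1+/+ replicate 1 had the lowest Hamp and the highest scaled Tfrc, 3.45, and AL SIRT1-/- replicate 4 had the lowest Hamp among AL livers, 5.66, and the highest Tfrc among them, 3.05. AL SIRT1-/- replicate 4 also stood apart in some acute phase genes, with Saa3 at 6.99 against at most 1.31 elsewhere and Saa1 at 4.30 against at most 0.98, both serum amyloid genes. Lcn2, an iron-siderophore binding protein, was at 7.16 there against at most 5.53. Of the same marker list, Saa4 was lowest in this liver, at -1.21, and Orm1, Itih3, Itih4, Fga and Fgg were highest in other livers. The livers share 6 groups and 1 scale, so the correlation is a description of the scaled levels, and it was not computed on other scalings. In deposited signal the medians of both genes were higher on CR. They were 17363 on CR and 10835 on AL for Hamp, and 673 and 395 for Tfrc. The parts of the scaling and of the acute phase genes in the correlation were not tested.

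**Figure D2:**
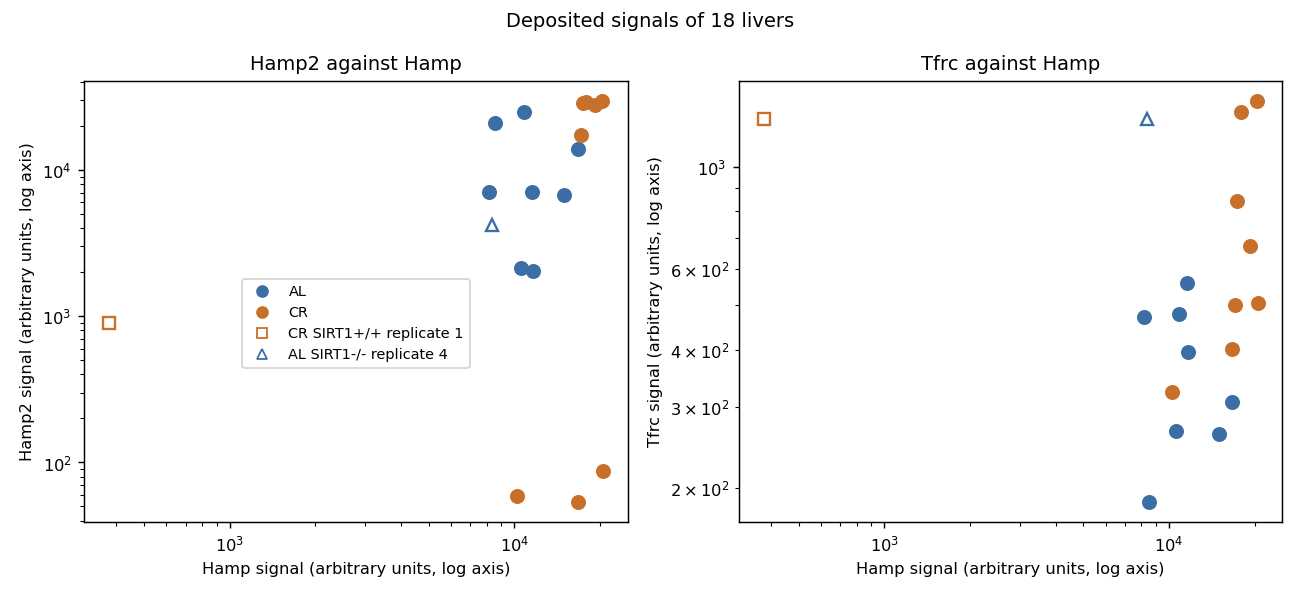
Deposited signal (arbitrary units, log axes) of Hamp2 (left, y axis) and Tfrc (right, y axis) against Hamp (x axis), with 1 point per liver, AL in blue and CR in orange. In the left panel 3 CR livers have Hamp2 signals of 53.6 to 87.8 beside Hamp signals of 10205 to 20498, and in both panels CR SIRT1+/+ replicate 1 stands alone at a Hamp signal of 377.

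The genes whose levels were most like those of Hamp over the 18 libraries were Aspg, an asparaginase (r = 0.933), H2-T23, a non-classical histocompatibility gene (0.897), Apoh (0.897), Atg2a, an autophagy gene (0.850), and Osbpl9, an oxysterol-binding protein gene (0.842). These values rested on the liver with little Hamp: over the other 17 libraries Aspg was at 0.582 and Apoh at 0.172, and the leading gene was Hdgf, a growth factor gene, at 0.880. For Hamp2 the most alike were Rundc1 (0.808), Cyp2a12, a cytochrome P450 gene (0.780), Zfp94 (0.768), Mtmr10 (0.745) and Opa3 (0.724), and Rundc1 and Cyp2a12 led also without that liver, at 0.835 and 0.823. For Tfrc they were Srsf6, a splicing factor gene (0.888), Phospho2 (0.886), Eif1b (0.876), Ythdf1 (0.860) and Prmt3 (0.854). No such gene was sought for Bmp6, which was not detected. Hamp and Hamp2 themselves gave a Pearson r of 0.0965 over 18 libraries. The libraries share their diets and scaling, and these correlations are given without a test.

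The hepatocyte iron sensors Tfr2 and Hfe had the averaged CR effects nearest 0 among the 8 genes on this scale. Transferrin receptor 2 signals ranged from 1773 to 5525, a 3.12-fold range, and its scaled levels from 4.21 to 5.03. The Tfr2 group means lay between 4.53 in AL SIRT1+/+ and 4.82 in CR SIRT1-/-, each overlapping its neighbours in order, and the averaged CR effect was 0.05 (SE 0.112, 95% interval -0.19 to 0.29), with an exact permutation p of 0.648. Hfe, the gene mutated in hereditary haemochromatosis, had signals of 372 to 1071 and scaled levels of 1.82 to 2.61. Its highest group means were 2.50 in CR SIRT1-/- (2.44 to 2.55) and 2.37 in AL SIRT1+/- (2.35 to 2.38), which did not overlap, and all later neighbours did. The averaged Hfe effect was 0.00 (SE 0.103, 95% interval -0.22 to 0.22), with an exact permutation p of 0.997, and it was -0.06 after quantile normalization and -0.16 as the mean of both Hfe probes, which followed each other with a Pearson r of 0.386 only. The second Tfr2 probe gave an r of 0.776. Slc40a1, which encodes ferroportin, had signals of 6253 to 18137 and scaled levels of 5.45 to 6.87, the lowest in AL SIRT1-/- replicate 4. Its group means lay between 6.14 in CR SIRT1+/+ and 6.51 in AL SIRT1+/+, and the averaged CR effect was -0.13 (SE 0.173, 95% interval -0.50 to 0.24), with an exact permutation p of 0.471, and turned to 0.09 after quantile normalization and after neqc. Without AL SIRT1-/- replicate 4 it was -0.23.

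Trf and Fth1, the plasma iron carrier transferrin and the heavy chain of the iron store ferritin, were among the brightest genes of every array. The scaled Trf levels on AL were 8.63, 8.03 and 7.32 for SIRT1+/+, 8.60 and 8.40 for SIRT1+/- and 8.26, 7.89, 8.44 and 7.19 for SIRT1-/-. On CR, they were 8.0, 7.05 and 6.99 for SIRT1+/+, 7.41, 7.05 and 8.54 for SIRT1+/- and 8.14, 6.83 and 7.15 for SIRT1-/-. In every genotype at least 1 CR liver lay within the AL range. The averaged CR effect on Trf was -0.68 (SE 0.266, 95% interval -1.25 to -0.12), with a limma adjusted p of 0.110 and an exact permutation p of 0.0313. Without CR SIRT1+/- replicate 3, the highest CR liver for Trf, it was -0.83 with a limma adjusted p of 0.0454.

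The scaled Fth1 levels on AL were 8.59, 8.26 and 7.70 for SIRT1+/+, 8.42 and 8.51 for SIRT1+/- and 8.28, 8.22, 8.59 and 7.55 for SIRT1-/-. On CR, they were 8.37, 7.17 and 6.97 for SIRT1+/+, 7.68, 6.95 and 8.48 for SIRT1+/- and 8.37, 7.08 and 7.35 for SIRT1-/-. The CR livers high in Fth1 were also those high in Trf: replicate 1 of SIRT1+/+, replicate 3 of SIRT1+/- and replicate 1 of SIRT1-/-. On those arrays the brightest probe stood at 8.67, 8.83 and 8.40, against 7.29 to 7.93 on the other CR arrays. Ttr was high in the same livers, at 8.08, 8.49 and 7.95, against 6.68 to 7.41 in the other CR livers. The part of the scaling in this likeness was not tested. The averaged CR effect on Fth1 was -0.67 (SE 0.256, 95% interval -1.21 to -0.12), with a limma adjusted p of 0.106 and an exact permutation p of 0.0283. Without CR SIRT1+/+ replicate 1 it was -0.81 with a limma adjusted p of 0.0424. These exact p-values were not adjusted over the 8 genes. By genotype, the Trf difference was -0.65 for SIRT1+/+, -0.84 for SIRT1+/- and -0.57 for SIRT1-/-, and that of Fth1 -0.68, -0.76 and -0.56, each with a 95% interval that covered 0. Without CR SIRT1+/+ replicate 1 the SIRT1+/+ differences were -0.98 for Trf and -1.12 for Fth1, and without AL SIRT1-/- replicate 4 the SIRT1-/- differences were -0.82 and -0.76. The CR effect in SIRT1-/- less that in SIRT1+/+ was 0.08 for Trf (95% interval -1.23 to 1.40) and 0.12 for Fth1 (-1.14 to 1.39), and these were 0.41 and 0.55 without the first of those livers and -0.17 and -0.08 without the second. The second Fth1 probe followed the first with a Pearson r of 0.978.

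The Trf and Fth1 effects differed between scalings. The deposited Trf signals were 22556 to 31613 on AL and 24060 to 29401 on CR, and those of Fth1 24646 to 33089 and 24072 to 36138, ranges that overlapped and spanned 1.40-fold and 1.50-fold over all livers. The median deposited signal was 25133 on AL and 27063 on CR for Trf, and 27938 and 29646 for Fth1. After quantile normalization the averaged effects were -0.15 for Trf and -0.12 for Fth1, with exact permutation p-values of 0.0864 and 0.138. The brightest gene of an array stood at 7.67 to 9.02 on AL and at 7.29 to 8.83 on CR. Of all genes tested, 29 lay within 1 scaled log2 unit of their array's brightest gene in all 18 libraries, Trf and Fth1 among them, and all 29 had an averaged CR effect below 0, with a median of -0.61 and a range of -0.87 to -0.36. The median of these 29 genes was -0.05 after quantile normalization and -0.05 after neqc. Hamp lay within 1 unit of the array top in 4 libraries, Hamp2 in 7 and Slc40a1 in 2, and Tfrc, Tfr2 and Hfe in 0. The part of the scaling in the Trf and Fth1 effects was not tested.

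**Figure D3:**
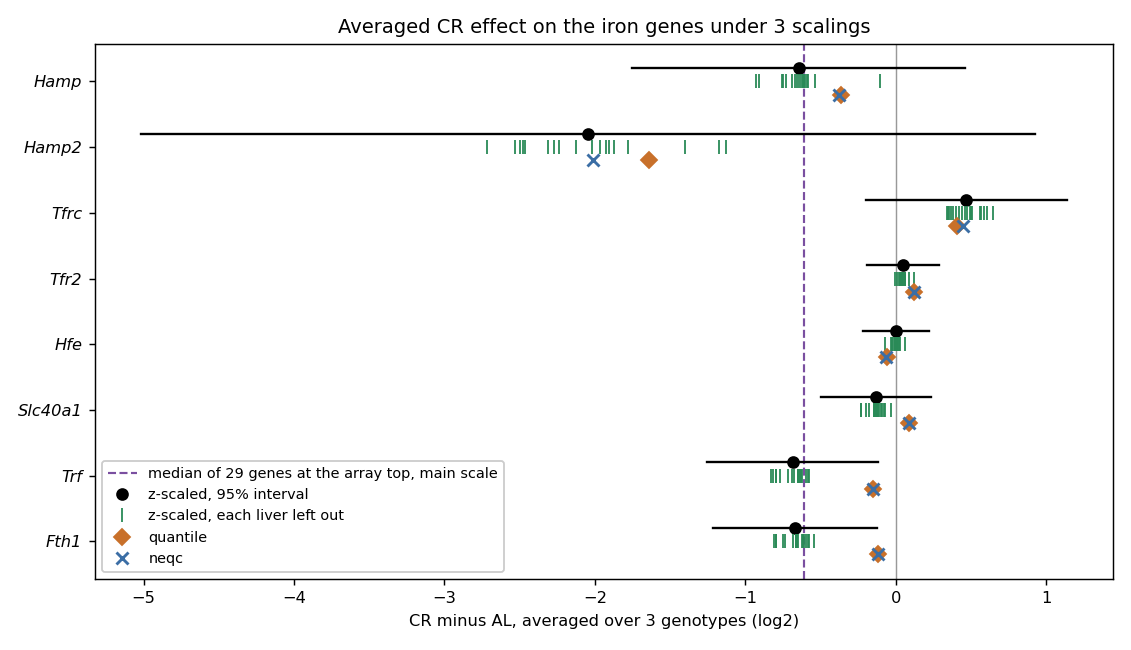
Averaged CR minus AL difference (x axis, log2 units) of the 8 measured iron genes (y axis) on the z-scaled values with its 95% interval, with each liver left out in turn (green ticks), and after quantile normalization and neqc. Trf at -0.68 and Fth1 at -0.67 stand beside the dashed line, the median of -0.61 of the 29 genes at the array top, and move to -0.15 and -0.12 after quantile normalization.

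Over the 8 genes, none passed the limma threshold of an adjusted p under 0.05 in any of 9 contrasts, each adjusted over all 8950 genes. For the averaged CR effect, 10.1% of all genes were called, 6.42% higher and 3.63% lower on CR, and 0 of the 8 in either direction, with 2 of them, Trf and Fth1, at an unadjusted limma p under 0.05. Among all genes 575 were called higher and 325 lower, a split that was 514 to 467 after quantile normalization and 500 to 490 after neqc. For CR within SIRT1+/+, SIRT1+/- and SIRT1-/-, 0.659%, 0.0223% and 0.145% of all genes were called, and 1, 0 and 0 of the 8 had an unadjusted limma p under 0.05, the 1 being Hamp. For the difference between the CR effects of SIRT1-/- and SIRT1+/+, 0.0223% of all genes were called, and 0 of the 8 had an unadjusted limma p under 0.05. Between genotypes, 0.38% were called for SIRT1-/- against SIRT1+/+ on AL, and 0% for SIRT1+/- against SIRT1+/+ on AL, SIRT1-/- against SIRT1+/+ on CR and SIRT1+/- against SIRT1+/+ on CR. In these 4 contrasts, 0, 0, 0 and 1 of the 8 had an unadjusted limma p under 0.05, the 1 being Hamp. With call rates this low, 0 of 8 is near the background in every contrast. The median averaged CR effect of the 8 genes was -0.39, with 5 below 0, against a median of 0.03 over all genes. The median of the 8 was -0.09 after quantile normalization and -0.09 after neqc, each with 5 below 0.

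Beyond the 8 genes, 6 lists of other iron genes held 73 symbols, of which 66 were on the array and 52 passed the detection filter. For the averaged CR effect, 5 of the 52 passed the limma threshold, 4 higher and 1 lower, which is 9.62% against 10.1% of all genes, and their median was 0.08 against 0.03. Within a single genotype, 0 of the 52 passed by limma. The plot of the pathway genes sets them beside the middle of all genes.

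In the list for BMP and SMAD control of hepcidin, 2 of 17 genes tested rose and 0 fell, with a median of 0.06. Bmp4, a BMP ligand, rose by 0.42 (SE 0.111, limma adjusted p 0.0272), from -0.51 to 0.69 over the AL livers to -0.19 to 1.02 over the CR livers. Smad5, a signal carrier of BMP receptors, rose by 0.41 (SE 0.108, limma adjusted p 0.0281), and the mean of its probes gave 0.16 with a limma adjusted p of 0.253. The calls held in 13 and 10 of 18 fits that each left out 1 liver, and for Bmp4 the limma adjusted p was 0.0550 after quantile normalization and 0.0591 after neqc. Neo1, a hemojuvelin partner, stood at 0.37 with a limma adjusted p of 0.0756. The IL6 and STAT3 list had 0 of 5 genes called and a median of 0.10, with the receptor genes Il6ra at 0.50 and Il6st at 0.48 and the kinase gene Jak2 at 0.10 (limma adjusted p 0.124, 0.362 and 0.589).

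In the list for iron uptake, reduction and oxidation, 1 of 7 genes tested rose and 0 fell, with a median of -0.04. Steap2, a membrane ferrireductase, rose by 1.23 (SE 0.191, limma adjusted p 0.00265), from -0.80 to 0.79 over the AL livers to 0.68 to 1.78 over the CR livers, the largest averaged change upwards among the 52. The call held in 18 of 18 fits that left out 1 liver. Scara5, a ferritin receptor, stood at -1.80 (limma adjusted p 0.0764) and was detected in 9 libraries, on AL in 3 of 3 SIRT1+/+, 2 of 2 SIRT1+/- and 1 of 4 SIRT1-/- livers and on CR in 1, 2 and 0 of 3. Its highest level was 3.86 in AL SIRT1-/- replicate 4, while the other AL SIRT1-/- livers lay at -1.39 to -1.18, and without that replicate the averaged effect was -1.37 with a limma adjusted p of 0.0132. Slc11a2, the divalent metal transporter, stood at 0.29 with a limma adjusted p of 0.325.

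In the list for storage and control by iron regulatory proteins, 0 of 6 genes tested rose and 1 fell, with a median of 0.20. Pcbp1, a chaperone that delivers iron to ferritin, fell by 0.30 (SE 0.069, limma adjusted p 0.0144), from 4.37 to 4.71 on AL to 4.00 to 4.41 on CR, and the call held in 17 of 18 fits that left out 1 liver, with a limma adjusted p of 0.0581 without AL SIRT1+/- replicate 1, and was lost after neqc (limma adjusted p 0.0508). Aco1 and Ireb2, which encode the iron regulatory proteins, stood at 0.37 and 0.32 (limma adjusted p 0.0609 and 0.205). In the list for haemoglobin and haem, 1 of 11 genes tested rose and 0 fell, with a median of -0.02. Flvcr2, a relative of the haem exporter gene Flvcr1, rose by 0.81 (SE 0.166, limma adjusted p 0.00869), and this call held in 18 of 18 such fits. Hp and Hpx, which bind free haemoglobin and haem in plasma, stood at -0.58 and -0.73 (limma adjusted p 0.117 and 0.112), and at -0.02 and -0.11 after quantile normalization. The list for mitochondrial import and iron-sulphur clusters had 0 of 6 genes called and a median of 0.13, with the assembly genes Nfs1 at 0.27, Isca1 at 0.24 and Glrx5 at 0.18 (limma adjusted p 0.0773, 0.126 and 0.377). The 11 libraries with Y-linked transcripts held 1 CR SIRT1+/+ and 1 CR SIRT1-/- liver, too few to judge whether the 5 calls hold there. The averaged effects in them were 1.24 for Steap2, 0.93 for Flvcr2, 0.30 for Bmp4, 0.30 for Smad5 and -0.27 for Pcbp1.

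**Figure D4:**
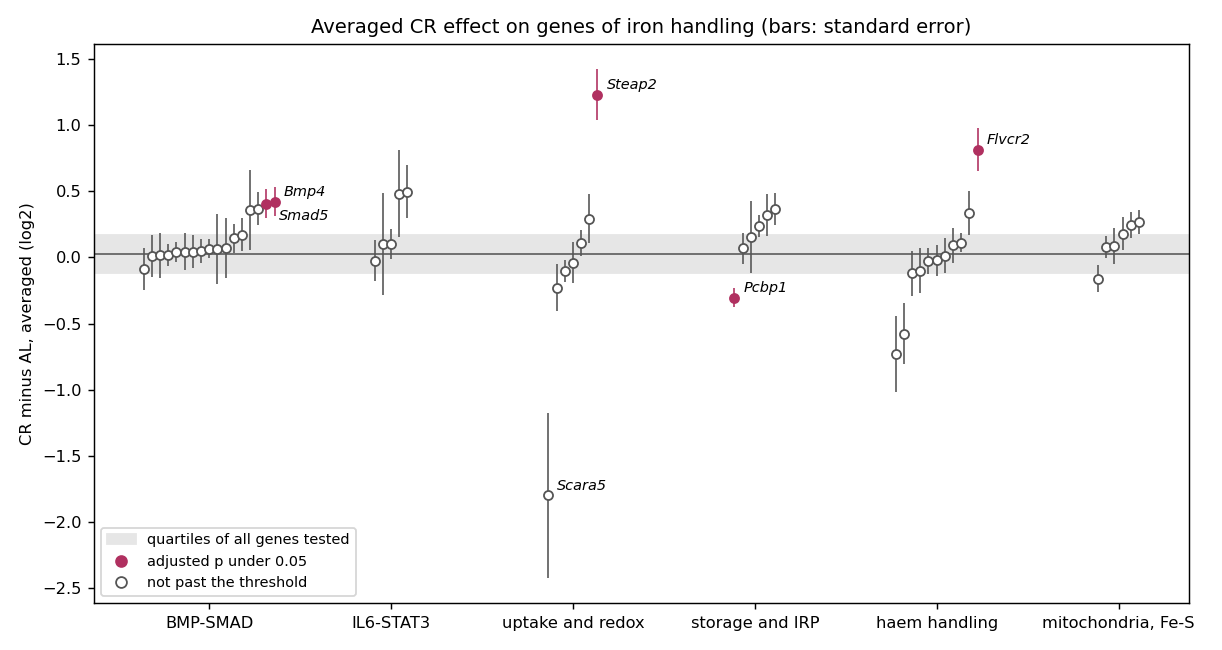
Averaged CR minus AL difference (y axis, log2 units) with its SE for the 52 iron pathway genes tested, by list (x axis), with the grey band between the quartiles of all 8950 genes and the line their median of 0.03. Filled points passed the limma threshold: Steap2 at 1.23, Flvcr2 at 0.81, Bmp4 at 0.42 and Smad5 at 0.41 above the line and Pcbp1 at -0.30 below it.

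In the marker lists of other cells that handle iron, 1 gene each was called for the averaged CR effect, beside 10.1% of all genes. Of the Kupffer cell and macrophage list, the cells that recycle red cell iron, 9 of 13 genes were tested and 1 was called, C1qb, a complement gene, which fell by 0.89 (limma adjusted p 0.0378), with a list median of -0.47 and Clec4f, the defining Kupffer gene, at -0.49 (limma adjusted p 0.0539, and 0.0495 without AL SIRT1-/- replicate 4). The C1qb call held in 9 of 18 fits that left out 1 liver. The summed signal of the list was 2347 to 8919, 2999 to 3260 and 2931 to 8051 in SIRT1+/+, SIRT1+/- and SIRT1-/- on AL and 3202 to 5690, 2643 to 3506 and 2981 to 5286 on CR. Of the erythroid list, 6 of 14 genes were tested and 1 was called, Alas2, the first enzyme of haem synthesis in red cells, which fell by 1.61 (limma adjusted p 0.0142), with a list median of 0.01. That call held in 17 of 18 such fits. On AL, Alas2 lay at 4.16 to 4.88 in SIRT1+/+, 4.65 to 4.84 in SIRT1+/- and 1.53 to 3.09 in SIRT1-/-. In the same genotypes on CR it lay at 1.08 to 3.90, 1.29 to 3.28 and 1.66 to 2.32, so the diets overlapped in SIRT1-/- only. The summed signal of the list was 18729 to 28097, 25380 to 31593 and 11985 to 32887 on AL and 14201 to 36182, 19949 to 30816 and 23398 to 27417 on CR. Of the markers tested, Marco was detected in 3 libraries, Slc4a1 in 5 and Hbb-bt in 9, and Cd5l, Spic, Epb42 and Bpgm did not pass the filter. The part of these cells in the Trf, Fth1 and Slc40a1 levels was not tested.

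Of the hepatocyte list 8 of 10 genes were tested, with a scaled median of -0.36 and 0 called. Its summed deposited signal on AL was 126188 to 155455 in SIRT1+/+, 121332 to 141202 in SIRT1+/- and 127839 to 149754 in SIRT1-/-. On CR it was 166107 to 194942, 147994 to 157641 and 160896 to 175774, above AL in each genotype. The part of the scaling in the list median was not tested. Of the acute phase list 14 of 16 were tested, with a median of -0.46 and 1 called, the fibrinogen gene Fgg. Fgg fell by 0.50 (limma adjusted p 0.0273) and had a limma adjusted p of 0.0546 after quantile normalization. Of the sinusoidal endothelial list 10 of 10 were tested, with a median of 0.07 and 1 called, Lyve1, which rose by 0.58 (limma adjusted p 0.0333) and was detected in 6 libraries. The Fgg and Lyve1 calls held in 12 and 9 of 18 fits that left out 1 liver. Of the stellate list 4 of 7 were tested, with a median of 0.10, of the cholangiocyte list 2 of 5, with a median of -0.01, and of the lymphocyte list 2 of 7, with a median of -0.03, and 0 of these were called by limma.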

How the data were processed

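Liver RNA of 18 mice was read on 1 Illumina array each. The authors extracted signals with a BeadArray reader and BeadStudio 3.4.0 (per the submitters' processing notes) and deposited, for each of 25697 probes, a signal intensity and a detection p-value. They also deposited a score per probe, the z-transformed log signal, which values computed here from the intensities matched. Probes were named from the platform annotation, in which 23978 carried 1 symbol and 1719 none. Groups came from the sample labels. The members and gene lists were chosen with earlier results of these data known. The rule for genes named in the text took the 9 members, list genes called or among the 3 with the largest change in their list, and the 5 genes most like Hamp, Hamp2 and Tfrc.

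Scaled log2 values were fitted with limma 3.58.1 in R 4.3.3 on 6 group means over all 18 libraries, with Benjamini-Hochberg adjustment over 8950 genes. The exact test, correlations and plots used Python 3.11.15 with scipy 1.17.1. The number of arrays limits the precision. In data simulated for the averaged CR effect over 8950 genes, 93 of 100 genes with a log2 change of 1 and 99 of 100 with one of 2 were recovered, and 14 unchanged genes were called. The changed genes were drawn at random, each with its own spread and the same shift in every genotype. These shares therefore do not describe contrasts within a genotype, or single genes with wide intervals such as Hamp and Hamp2. Alternatives covered quantile normalization, neqc (offset of 16), the deposited scores, detection filters, probe averaging, the samples in the fit, array weights, the replicate number as a block, Y-linked transcripts, 1 genotype label and each library left out.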

Additional observations from a re-analysis of the deposited data

Results flagged for a closer look

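None of the 8 iron genes had a liver far from its group by the gap test for groups of 4, which only AL SIRT1-/- allowed. Groups of 2 or 3 were not tested, so the low Hamp liver and the undetected Hamp2 livers were not covered. Among 35 genes tested in that group, 2 had a liver whose gap to the others was too large a part of the group's range. Scara5, the ferritin receptor gene, was at 3.86 in replicate 4 and at -1.39 to -1.18 in the other 3 livers. Saa3, a serum amyloid gene, was at 6.99 in the same liver and at -0.01 to 0.54 in the others. Chance flags about 5% of groups.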

How the results depend on the processing

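The averaged CR effect, with 0 of the 8 iron genes called in limma, gave 2 calls with array weights (Trf -0.90, adjusted p 0.00941, and Fth1 -0.87, adjusted p 0.00783), 1 with the replicate block (Trf -0.76, adjusted p 0.0429) and 2 with both libraries that stood apart left out (Trf -0.88, adjusted p 0.0309, and Fth1 -0.88, adjusted p 0.0211), an alternative chosen after seeing the data. Leaving out 1 library gave 0 to 1 calls: without CR SIRT1+/+ replicate 1, Fth1 was -0.81 (adjusted p 0.0424), and without CR SIRT1+/- replicate 3, Trf was -0.83 (adjusted p 0.0454). Among all genes these settings called 2136, 1305 and 1512, against 900. The other 8 contrasts kept 0 calls among the 8 genes under all 31 alternatives run. The 2 exact p-values under 0.05 became 0 after quantile normalization, 0 after neqc and 0 among libraries with Y-linked transcripts, and 0 to 2 when 1 library was left out. The cause of these shifts was not tested.

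Averaged effects that turned were Hamp, 0.15 among libraries with Y-linked transcripts; Tfr2, -0.0056 with array weights and -0.0039 to 0.12 when 1 library was left out; Slc40a1, 0.089 after quantile normalization, 0.088 after neqc and 0.070 among libraries with Y-linked transcripts; and Hfe, -0.056 after quantile normalization, -0.061 after neqc, -0.16 as the mean of probes, -0.0018 with the replicate block and -0.069 to 0.064 when 1 library was left out. None passed the limma threshold in any of these. The 5 calls in the pathway lists became 13 with array weights, 10 with the replicate block and 13 with both libraries left out. Among all genes those settings called 2136, 1305 and 1512, against 900. With Y-linked transcripts as a covariate 3 list genes were called, beside 491 of all genes. Leaving out 1 library gave 9 calls without CR SIRT1+/+ replicate 1 and 8 without AL SIRT1-/- replicate 4, beside 1021 and 1321 of all genes. It gave 2 or 3 without AL SIRT1+/+ replicate 1, AL SIRT1+/+ replicate 2 or CR SIRT1-/- replicate 2, beside 563, 515 and 492. Counts of list calls from fits with 1 liver in a group are not given. Fitting the compared groups alone gives no value for the averaged effect. Counting AL SIRT1-/- replicate 1 as SIRT1+/- left 0 of the 8 genes called.

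Whether the replicate numbers paired the livers was not tested. Over 40 pairs of libraries with the same number the median correlation of deviations from the group means was 0.022 (-0.18 to 0.29). It was -0.011 over 94 pairs with other numbers. Of the 40 pairs, 10 exceeded 0.1, and 8 of 18 libraries correlated best with their own number. Groups of 2 to 4 mice leave wide intervals, -1.75 to 0.46 for Hamp and -5.02 to 0.93 for Hamp2, and Bmp6 was below the detection limit in every library.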
